A study of Mus musculus with 15 samples.

Results

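Genes of the primary cilium and of intraflagellar transport were followed in astroglia sorted from 3 regions of the adult mouse brain. The set holds 40 genes listed by symbol, of which 37 were found under the gene symbols of the array platform, among 18193 genes measured in all. Arl6, Rpgrip1l and Arl13b were not matched and have no values here. Each gene was read from 1 probe set, the one with the highest mean over the 15 arrays. By role the measured genes comprise 13 transport genes, 6 genes of the BBSome, 7 genes of the transition zone, 5 Hedgehog-linked genes and 6 genes of cilium assembly and the ciliary membrane.

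The cells came from male Gli1-CreER;GFAP-GFP;R26tdTomato mice of 6 to 8 weeks, which received 2 doses of 10 mg tamoxifen. In these mice tdTomato marks cells, and their descendants, in which the promoter of Gli1, a target of Sonic hedgehog, drove the recombinase, and GFP marks cells in which the Gfap promoter is active. Cells positive for both were taken by flow cytometry 3 weeks later from the subventricular zone (SVZ), the hippocampus or the cerebellum, and 10 to 12 mice were pooled for each of the 5 Affymetrix arrays per region. Genotype, sex, age and tamoxifen were the same in all 3 groups, and the sort defines the cells by 2 transgene promoters, so astroglia that lacked either signal are not represented. The SVZ and hippocampus hold adult neural stem cells and the cerebellum served as the comparison region, so stem cell presence and brain region cannot be told apart. The labels do not say whether the pools of a region came from separate mice, and p-values measure the spread between these arrays only. In such bulk samples fewer cells of a type and less RNA per cell cannot be told apart.

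The primary cilium is a single antenna built on a centriole, and most astroglia and neural stem cells carry one. Trains of intraflagellar transport proteins carry cargo out with a kinesin motor and back with a dynein motor, the BBSome carries membrane proteins, and the transition zone at the base controls what enters. In vertebrates Hedgehog signalling runs through this organelle, where Patched and Smoothened exchange places and Gli factors are processed.

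Promoters of cilium genes often hold an X-box, the element bound by RFX transcription factors, and the RefSeq promoter windows of the set were searched for it on both strands. Each window ran from 250 bases before to 50 bases after a transcription start in the GRCm38.p6 build. The X-box was written as GTTNCCNNGGNAAC. A window was listed for 35 of the 40 genes, and 3 of them (8.57%) held an exact match, against 0.529% of all 27025 genes with a window. With at most 1 mismatch there were 9 genes (25.7%), against 2.89% of all genes. The shares for the further lists described later were 19% of 58 primary cilium genes and 34.6% of 26 motile cilium genes. The matches of these 9 of the 35 genes are shown because the X-box was the element searched for. Capitals mark the X-box, the sequences run 5′ to 3′ on the strand of the gene, and the first 3 are exact.
Bbs7, chr3:36613489-36613518, minus strand: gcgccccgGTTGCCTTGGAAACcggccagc
Mks1, chr11:87853183-87853212, plus strand: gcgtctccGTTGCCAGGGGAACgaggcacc
Tctn1, chr5:122264411-122264432, minus strand: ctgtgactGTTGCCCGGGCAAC
B9d1, chr11:61505130-61505159, plus strand: taccgtctGTTTCCAAGACAACcgagagcc
B9d2, chr7:25680788-25680817, plus strand: aacctgctGTTGCCCCAGCAACagtcgggg
Bbs1, chr19:4906605-4906634, minus strand: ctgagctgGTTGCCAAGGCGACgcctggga
Bbs4, chr9:59353464-59353493, minus strand: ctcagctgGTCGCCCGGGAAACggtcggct
Ift57, chr16:49699199-49699228, plus strand: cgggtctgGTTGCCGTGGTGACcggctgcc
Tctn2, chr5:124598679-124598708, plus strand: gattggagGTTACCATGGCTACtggtcctc
The first bases of the matches lay between positions -121 and 37, where 1 is the first transcribed base. The windows reached only from 250 bases before to 50 after the start, so nearness to it was set by the search. Of the 9 genes, 5 belong to the transition zone, 3 to the BBSome and 1 to transport. The shorter run GTTGCC, which overlaps the start of most X-boxes above, was held by 17 of the 35 genes (48.6%), against 14.1% of all genes. The Gli site GACCACCCA was in the windows of 0 of the 35 genes and of 0.289% of all genes. These matches describe the letters of the windows and do not show binding.

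Values are log2 signal as deposited, and differences are given on that scale with the standard error (SE) of the limma fit over all 15 arrays. A gene was called at a Benjamini-Hochberg adjusted p under 0.05 over all genes. No detection calls came with the values, and a mean level of 3 over the 15 arrays was taken as the line below which a gene is called dim. All 9 astrocyte markers had a mean above 3 in each region. So did 5 of 8 microglia markers in SVZ, 3 of 8 in hippocampus and 3 of 8 in cerebellum, and 1, 6 and 2 of 7 choroid plexus markers in the same order. On single arrays 9 to 20 of the 37 cilium genes read above 3. The cerebellum arrays were more alike (pairwise correlations across genes of 0.939 to 0.970) than those of SVZ (0.763 to 0.894) or hippocampus (0.792 to 0.884). The SD of a cilium gene between arrays had a median of 0.65 for SVZ, 0.77 for hippocampus and 0.46 for cerebellum, and was smallest in cerebellum for 21 of the 37 genes. The mean of the poly-A spike-in controls ranged from 11.09 to 13.18 in SVZ, from 11.48 to 12.90 in hippocampus and from 8.50 to 12.43 in cerebellum, where arrays 4 and 5 read 8.71 and 8.50. Array medians of 1.12 to 1.31 are low for values of this kind, and any further scaling before deposit would alter the size of every difference.

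Most cilium genes did not differ between the regions beyond the spread of the arrays. Against cerebellum, 2 of the 37 genes were lower in SVZ, B9d1 and Bbs1, and 0 were higher. In hippocampus 1 was lower than in cerebellum, Rab34, and 0 were higher. Between SVZ and hippocampus 1 gene was called, again Rab34, which was higher in SVZ. The share of all genes called lower in SVZ than in cerebellum was 4.47% and of those called higher 1.03%. In hippocampus against cerebellum the shares were 3.97% lower and 0.808% higher, and in SVZ against hippocampus 0.0055% lower and 0.0165% higher. The share of cilium genes called lower in SVZ, 5.41%, was close to that of all genes. At an unadjusted p under 0.05, 6 cilium genes (16.2%) differed in SVZ against cerebellum, 6 (16.2%) in hippocampus against cerebellum and 2 (5.41%) in SVZ against hippocampus. These shares were below those of all genes, which were 21.1%, 20.1% and 7.02%. The thresholds of the series, over 4-fold with an unadjusted p under 0.01, were met by 0 cilium genes in SVZ and by Ift140 and Rab34 in hippocampus, against 3.21% and 2.87% of all genes. Ift140 missed them when any 1 of SVZ 3 or 5, hippocampus 3, 4 or 5, or cerebellum 2, 3, 4 or 5 was left out, and so did both genes without hippocampus 1.

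Called and uncalled genes together lay mostly on one side. In SVZ 26 of the 37 differences from cerebellum were below 0, with a median of -0.24, and in hippocampus 28 of 37, with a median of -0.41. Over all genes the median was 0.07 in both comparisons. That background holds many dim genes, and level moved with sign. Among the 4816 genes with a mean above 3, the median was -0.72 in SVZ and -0.70 in hippocampus, with 76.2% and 78.7% of them below 0. That mean includes the cerebellum arrays, so genes high in cerebellum pass it more readily. The same limit holds for the 15 cilium genes above it. Of these, 14 lay below 0 in each comparison, with medians of -0.56 in SVZ and -1.11 in hippocampus. Both comparisons use the same cerebellum arrays. The region with the highest mean was cerebellum for 23 of the 37 genes, SVZ for 10 and hippocampus for 4. The arrays of SVZ and cerebellum did not overlap for B9d1, Bbs1 and Iqce, against 8.62% of all genes. Those of hippocampus and cerebellum did not overlap for Kif3a, Rab34 and Tulp3, against 7.98% of all genes, and those of SVZ and hippocampus for Rab34, against 0.813%.

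**Figure D1:**
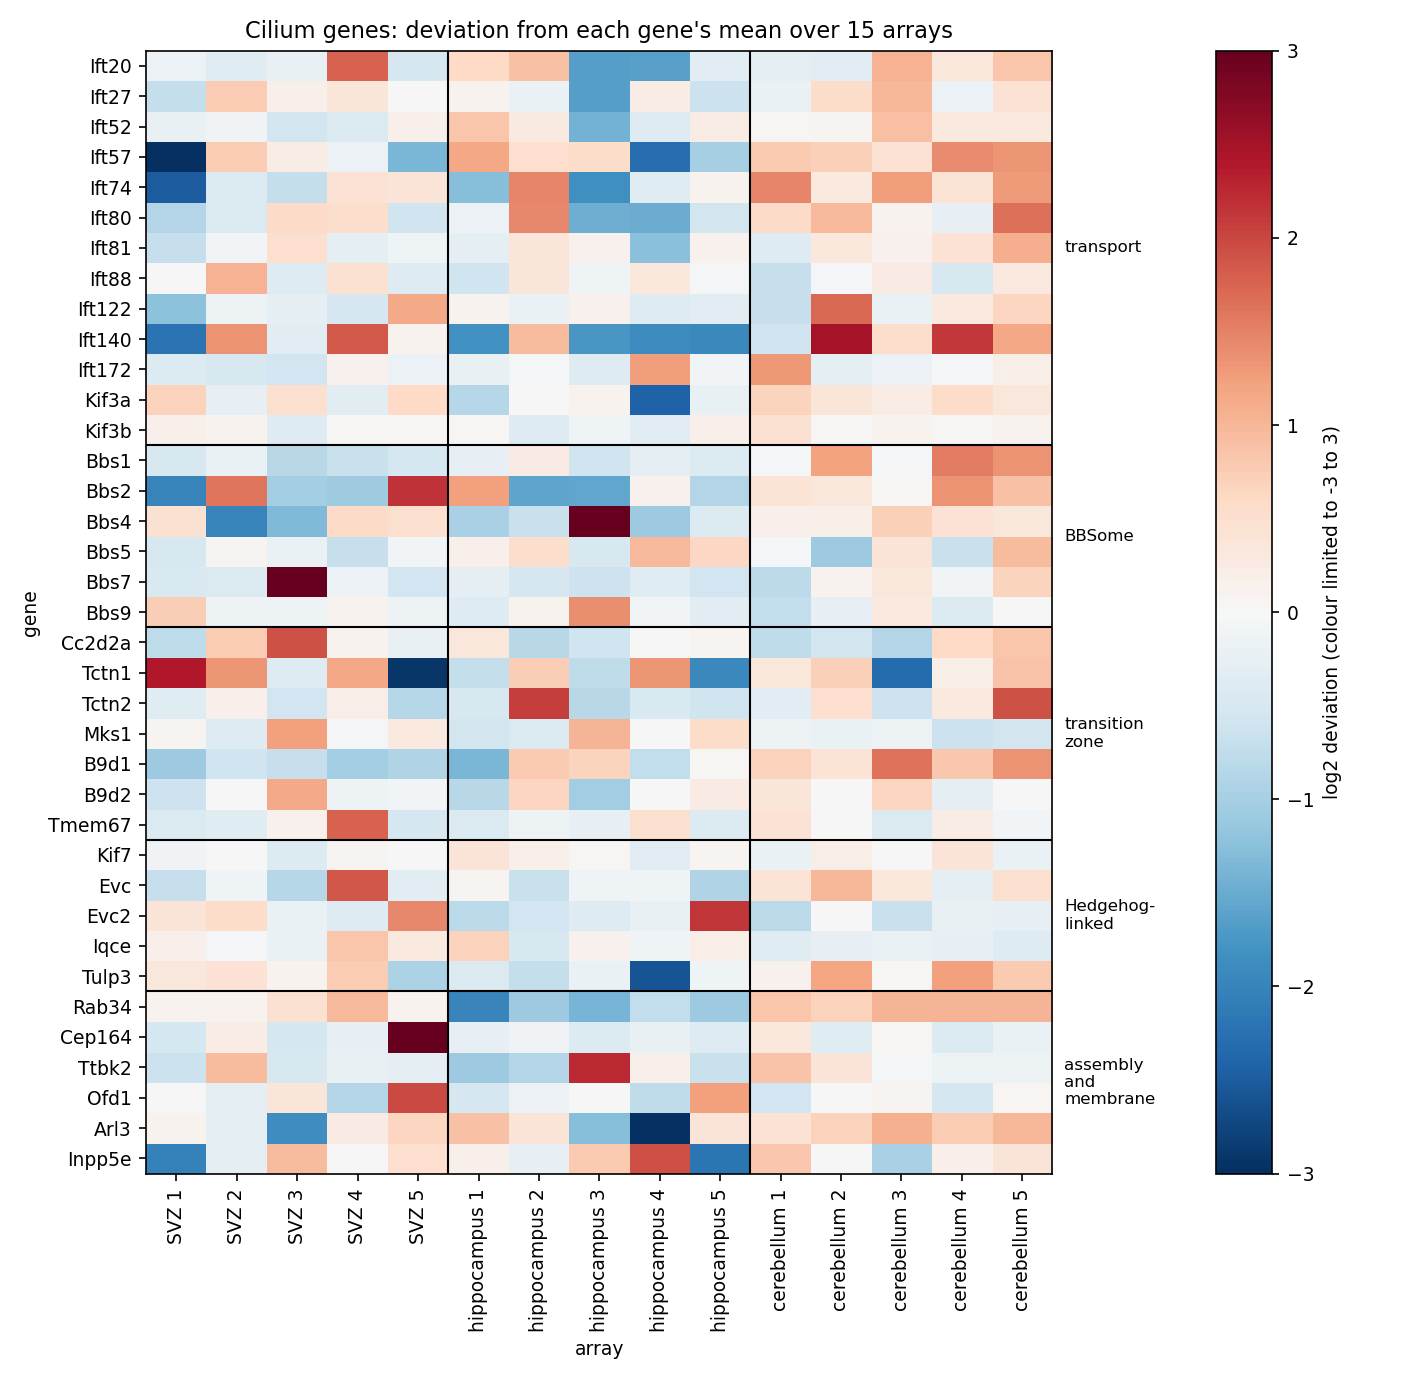
Colour gives the log2 level of each of the 37 cilium genes (vertical axis, by role) on each of the 15 arrays (horizontal axis, by region) minus the mean of that gene over all arrays, limited to -3 to 3. Rab34 is blue on all 5 hippocampus arrays, the cerebellum arrays are the most even, and single dark cells such as Bbs7 on SVZ 3 (5.40) and Bbs4 on hippocampus 3 (7.82) stand alone in their region.

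Transport genes showed no called difference in any of the 3 comparisons, although 12 of 13 had a lower mean than in cerebellum in both SVZ and hippocampus. Their median difference was -0.49 in SVZ and -0.75 in hippocampus. Over all genes it was 0.07 in both, with 43.5% and 44.1% below 0. Over genes with a mean above 3 it was -0.72 and -0.70, with 76.2% and 78.7% below 0. The adjusted p-values of single transport genes ran from 0.186 to 0.839 and from 0.108 to 0.889. Ift88, a core subunit of the outward-moving IFT-B complex, was the exception to the lower means in both, at 0.28 ± 0.30 and 0.12 ± 0.30 (SE). The span of the 13 differences was -1.65 to 0.28 in SVZ and -2.42 to 0.12 in hippocampus.

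Ift140, a subunit of the IFT-A complex that serves the return to the cell body, had the most negative transport difference in hippocampus. It read 1.57, 4.32, 1.62, 1.49 and 1.45 on hippocampus arrays 1 to 5. On the cerebellum arrays it read 2.77, 5.87, 3.91, 5.49 and 4.53, and on the SVZ arrays 1.15, 4.72, 3.06, 5.21 and 3.47. Hippocampus arrays 1, 3, 4 and 5 lay below every cerebellum array, and hippocampus 2 lay within the cerebellum range. The difference from cerebellum was -2.42 ± 0.81 (5.37-fold; adjusted p = 0.108), so it was not called. Without hippocampus 2 it was -2.98 (adjusted p = 0.0347), with dim genes left out the adjusted p was 0.0483, and with the replicate number as a block it was 0.0192. In SVZ the difference was -0.99 ± 0.81 (adjusted p = 0.500), with array 1 at the bottom.

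Ift57, an IFT-B subunit, had the most negative transport difference in SVZ. Its arrays read 2.39, 6.18, 5.64, 5.24 and 4.04 for SVZ, 6.57, 5.93, 5.96, 3.13 and 4.42 for hippocampus, and 6.20, 6.12, 5.84, 6.84 and 6.73 for cerebellum. The low SVZ mean came mainly from arrays 1 and 5, and SVZ 2 lay within the cerebellum range. Neither the SVZ difference of -1.65 ± 0.72 (adjusted p = 0.207) nor the hippocampus difference of -1.14 ± 0.72 (adjusted p = 0.378) was called. Ift74, which joins Ift81 in binding tubulin, had differences of -1.51 ± 0.63 (SVZ, adjusted p = 0.186) and -1.32 ± 0.63 (hippocampus, adjusted p = 0.255).

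Kif3a and Kif3b encode the motor subunits of the outward-moving kinesin. Kif3a read 5.07, 4.13, 4.85, 4.06 and 4.98 in SVZ, 3.52, 4.37, 4.48, 1.95 and 4.16 in hippocampus, and 5.04, 4.74, 4.59, 4.92 and 4.72 in cerebellum. All 5 hippocampus arrays lay below all 5 cerebellum arrays, yet the difference of -1.11 ± 0.40 was not called (adjusted p = 0.145). With the mean of its 4 probe sets in place of 1 it was -1.27 (adjusted p = 0.0154), which would be called. In SVZ Kif3a stood at -0.18 ± 0.40 from cerebellum (adjusted p = 0.812). Its other probe sets, each tested on its own, gave larger negative SVZ differences, and none was called. They were -1.69 ± 0.56 (adjusted p = 0.104), -0.88 ± 0.77 (0.548) and -0.68 ± 0.25 (0.154). Kif3b had a mean of 1.71 over all arrays, near the floor of the scale, and its differences were -0.15 ± 0.15 and -0.27 ± 0.15.

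The BBSome genes had 1 call. Bbs1, which encodes the subunit that binds the GTPase Arl6 at the membrane, was lower in SVZ than in cerebellum. It read 0.98, 1.27, 0.63, 0.79 and 0.95 in SVZ, 1.21, 1.71, 0.88, 1.18 and 1.06 in hippocampus, and 1.43, 2.68, 1.43, 3.00 and 2.81 in cerebellum. Every SVZ array lay below every cerebellum array, and the cerebellum arrays fell into a pair at 1.43 and 3 arrays between 2.68 and 3.00. The difference was -1.35 ± 0.31 in SVZ (2.54-fold; adjusted p = 0.0198) and -1.06 ± 0.31 in hippocampus, which was not called (adjusted p = 0.0673) but passed under 6 alternatives, among them without hippocampus 2 (0.0458), cerebellum 1 (0.0274) or cerebellum 3 (0.0275). All these values are dim, so the fold may be understated and the gene has no value once dim genes are left out. The call was lost without cerebellum 2 (adjusted p = 0.0560), without cerebellum 4 (0.0527), without cerebellum 5 (0.0596) and without cerebellum 4 and 5 together (-0.92, adjusted p = 0.172). With the spike-in level as a covariate the difference was -0.54 (adjusted p = 0.599). The 3 highest cerebellum arrays included arrays 4 and 5, which had the lowest spike-in levels.

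Bbs2 and Bbs4, both BBSome subunits, varied widely within regions. Bbs2 read 1.96, 5.56, 2.94, 2.89 and 6.14 in SVZ, 5.19, 2.37, 2.40, 4.09 and 3.08 in hippocampus, and 4.37, 4.30, 4.00, 5.30 and 4.83 in cerebellum. SVZ arrays 2 and 5 were above all cerebellum arrays and the other 3 below them, and the difference of -0.66 ± 0.77 was not called (adjusted p = 0.637). In hippocampus it was -1.13 ± 0.77 (adjusted p = 0.410).

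The Bbs4 probe set with the highest mean gave 5.17, 2.71, 3.38, 5.29 and 5.18 in SVZ, 3.74, 4.05, 7.82, 3.61 and 4.31 in hippocampus, and 4.86, 4.89, 5.43, 5.15 and 5.04 in cerebellum. Hippocampus 3 lay above all other arrays, and the other 4 hippocampus arrays below all of cerebellum. For SVZ the difference was -0.73 ± 0.73 (adjusted p = 0.584), for hippocampus -0.37 ± 0.73 (adjusted p = 0.788). Another Bbs4 probe set was called lower in both regions when every probe set was tested on its own. Its differences were -1.65 ± 0.30 (SVZ, adjusted p = 0.00543) and -1.22 ± 0.30 (hippocampus, adjusted p = 0.0341). The mean of the 4 Bbs4 probe sets was lower by -1.18 (adjusted p = 0.0274) and -1.11 (adjusted p = 0.0408), so the call for Bbs4 depends on which probe set is read. The remaining BBSome genes, Bbs5, Bbs7 and Bbs9, were dim, with means of 2.13, 1.63 and 1.51 over all arrays and differences from -0.51 to 0.45.

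**Figure D2:**
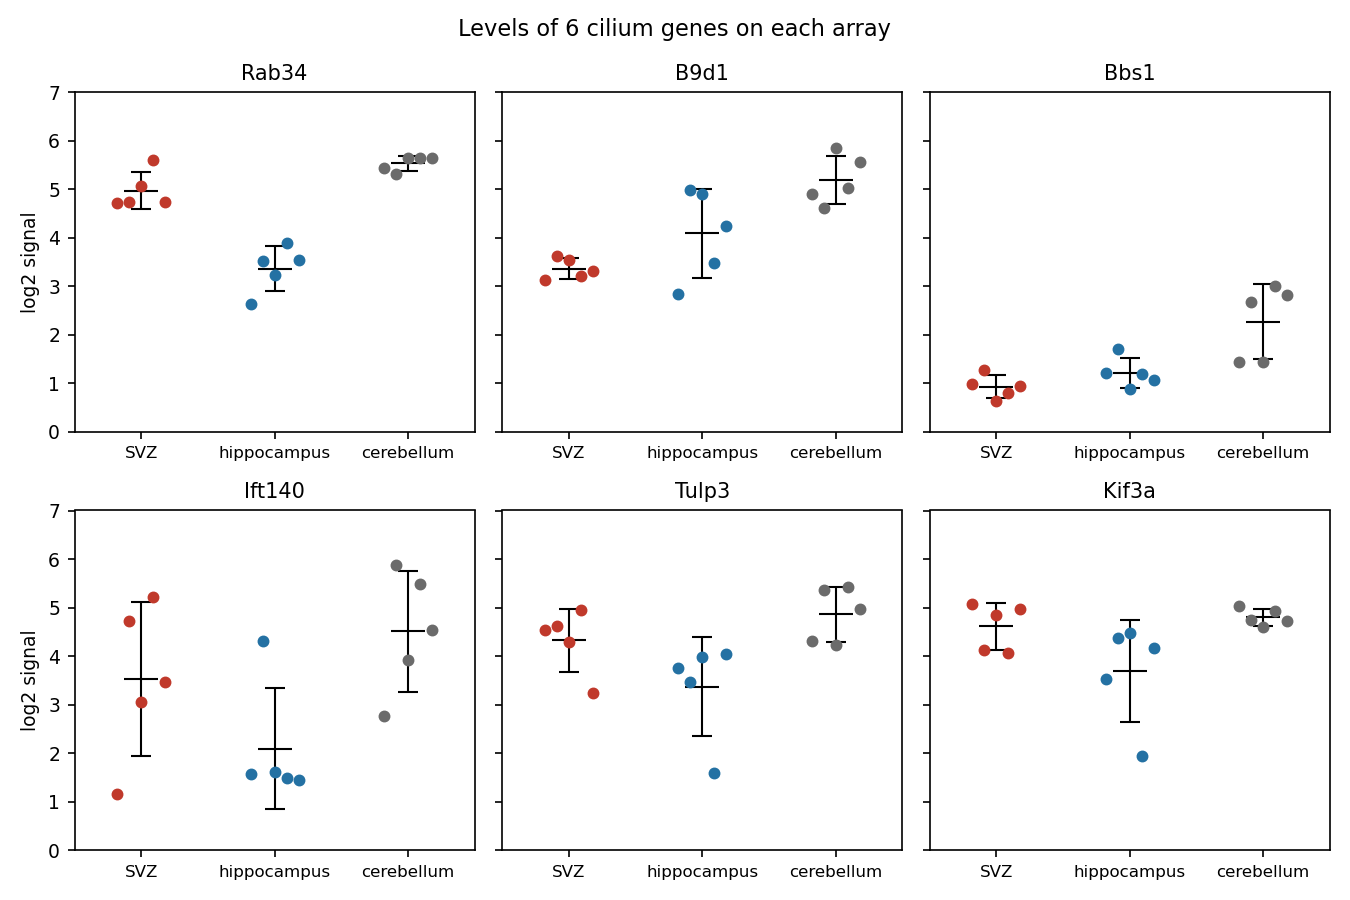
Each dot is the log2 signal of 1 array (vertical axis) by region (horizontal axis), and bars give mean ± SD of 5 arrays for 6 cilium genes. The Rab34 arrays of hippocampus (2.63 to 3.88) lie below all others, B9d1 and Bbs1 separate SVZ from cerebellum, and Ift140, Tulp3 and Kif3a were not called.

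Transition zone genes build the gate between the cilium and the cell body, and their products act together in one protein complex. In SVZ 3 of the 7 differences from cerebellum were below 0 (median 0.09), in hippocampus 6 of 7 (median -0.23). B9d1 was lower in SVZ, and none of the other 6 was called. B9d1 read 3.12, 3.62, 3.53, 3.20 and 3.31 in SVZ, 2.84, 4.99, 4.89, 3.48 and 4.24 in hippocampus, and 4.90, 4.61, 5.85, 5.03 and 5.55 in cerebellum. The SVZ arrays were tightly grouped and all below the cerebellum arrays, while hippocampus spanned the gap. The difference was -1.83 ± 0.37 in SVZ (3.56-fold; adjusted p = 0.0106), -1.10 ± 0.37 in hippocampus (adjusted p = 0.116), and -0.73 ± 0.37 between SVZ and hippocampus (adjusted p = 0.714). Without hippocampus 2 the hippocampus difference was -1.33 (adjusted p = 0.0494). The SVZ call held in 24 of 27 alternative settings. It was lost with quantile normalization (-1.33, adjusted p = 0.0634), with the spike-in level as a covariate (-1.40, 0.311) and without cerebellum 4 and 5 (-1.76, 0.0813).

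B9d2 and Mks1, which share the B9 domain with B9d1 and form a complex with it, were not called. Their differences from cerebellum in SVZ were -0.09 ± 0.36 (adjusted p = 0.907) and 0.58 ± 0.33 (adjusted p = 0.334), and both were dim. Tctn1, a tectonic of the same complex, was the most variable cilium gene in SVZ, where it read 6.55, 5.46, 3.76, 5.30 and 1.22. On the cerebellum arrays it read 4.48, 4.86, 1.84, 4.31 and 5.00, and the difference of 0.36 ± 0.94 was within that spread. Tctn2, Cc2d2a and Tmem67, the last a transmembrane receptor-like protein, had adjusted p-values of 0.528, 0.556 and 0.903 in SVZ.

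Hedgehog-linked cilium genes had no called difference in any comparison. Tulp3, which carries receptors into the cilium and restrains the Hedgehog response, came nearest. It read 3.76, 3.47, 3.98, 1.59 and 4.05 in hippocampus, 4.32, 5.36, 4.23, 5.42 and 4.97 in cerebellum, and 4.53, 4.63, 4.29, 4.94 and 3.24 in SVZ. Each hippocampus array lay below each cerebellum array, by a small margin for arrays 3 and 5, and hippocampus 4 stood far below the rest. The difference was -1.49 ± 0.46 in hippocampus (2.81-fold; adjusted p = 0.0854) and -0.53 ± 0.46 in SVZ (adjusted p = 0.523). The other Tulp3 probe sets gave smaller hippocampus differences, of -0.20 ± 0.94 (adjusted p = 0.917) and -0.31 ± 0.29 (adjusted p = 0.574).

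Evc, Evc2 and Iqce form a complex near the base of the cilium that relays the Smoothened signal, and Kif7 organises the ciliary tip where Gli factors gather. All 4 were dim. Evc2 read 2.18, 2.36, 1.61, 1.42 and 3.24 in SVZ, 0.99, 1.22, 1.41, 1.57 and 3.95 in hippocampus, and 0.99, 1.81, 1.14, 1.57 and 1.56 in cerebellum. The groups overlapped, and its differences were 0.75 ± 0.50 (SVZ, adjusted p = 0.406) and 0.41 ± 0.50 (hippocampus, adjusted p = 0.643). Iqce arrays of SVZ, 1.17 to 2.21, did not overlap those of cerebellum, 0.99 to 1.16, but the difference of 0.50 ± 0.22 was not called (adjusted p = 0.216). The other Iqce probe sets gave SVZ differences of -0.37 ± 0.21 and 0.02 ± 0.16. Kif7 had a mean of 1.26 over all arrays and differences of -0.13 ± 0.17 and 0.02 ± 0.17.

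The pathway genes that work through these proteins were measured beside them. Of 10 Hedgehog core genes, Gas1 and Ptch1 were lower than in cerebellum in both SVZ and hippocampus and Cdon was higher in hippocampus. Cdon was dim, with means of 1.63 in hippocampus and 0.72 in cerebellum (adjusted p = 0.0393). Smo, the transducer that enters the cilium, had a mean of 4.32 ± 3.02 in SVZ, 5.09 ± 1.84 for hippocampus and 4.70 ± 1.29 for cerebellum (SD, n = 5 arrays each), and it was not called. Sufu, which holds Gli factors in check, was dim in all 3 regions, with means of 1.55, 2.10 and 1.54.

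Among genes of assembly and the ciliary membrane, Rab34 gave the clearest regional difference of the whole set. Rab34 is a small GTPase that works on the ciliary vesicle in an early step of cilium formation and is needed for Hedgehog signalling. It read 2.63, 3.52, 3.23, 3.88 and 3.53 in hippocampus, 5.44, 5.30, 5.63, 5.64 and 5.64 in cerebellum, and 4.72, 4.73, 5.07, 5.60 and 4.73 in SVZ. Hippocampus overlapped neither other region, and SVZ 4 reached the cerebellum range. Rab34 was lower in hippocampus than in cerebellum by -2.17 ± 0.23 (4.51-fold; adjusted p = 5.296e-05) and higher in SVZ than in hippocampus by 1.61 ± 0.23 (3.06-fold; adjusted p = 0.0295). SVZ against cerebellum, at -0.56 ± 0.23, was not called (adjusted p = 0.182), and with the mean of both Rab34 probe sets it was -0.82 (adjusted p = 0.0274).

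The 2 Rab34 calls differ in how far they hold. That against cerebellum passed in all 27 alternative settings, with differences of -2.30 to -1.61 and adjusted p-values of 1.743e-05 to 0.00335. The one between SVZ and hippocampus passed in 8 of 27, with adjusted p-values of 0.0131 to 0.502, and was lost when any 1 of SVZ 2, 3 or 4, hippocampus 2, 3 or 5, or any cerebellum array was left out. In those 11 fits the adjusted p lay between 0.0516 and 0.125. A further Rab34 probe set had means of 2.64 in SVZ, 2.48 in hippocampus and 3.72 in cerebellum. On it hippocampus differed from cerebellum by -1.24 ± 0.37 (adjusted p = 0.0793) and SVZ from hippocampus by 0.15 ± 0.37 (adjusted p = 0.937). Both probe sets had a lower mean in hippocampus than in cerebellum, and they placed SVZ differently.

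The sequence before the most upstream Rab34 start in RefSeq (GRCm38.p6) is shown because Rab34 carries the main regional difference. It covers 250 bases, chr11:78188177-78188426 on the plus strand and holds neither an X-box with at most 1 mismatch nor GTTGCC.
Rab34: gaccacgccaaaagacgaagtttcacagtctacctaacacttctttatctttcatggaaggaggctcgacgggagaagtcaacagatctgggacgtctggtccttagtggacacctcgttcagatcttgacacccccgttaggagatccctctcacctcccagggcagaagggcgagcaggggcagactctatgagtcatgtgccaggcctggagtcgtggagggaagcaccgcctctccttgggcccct
Its G and C share was 56.4%.

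**Figure D3:**
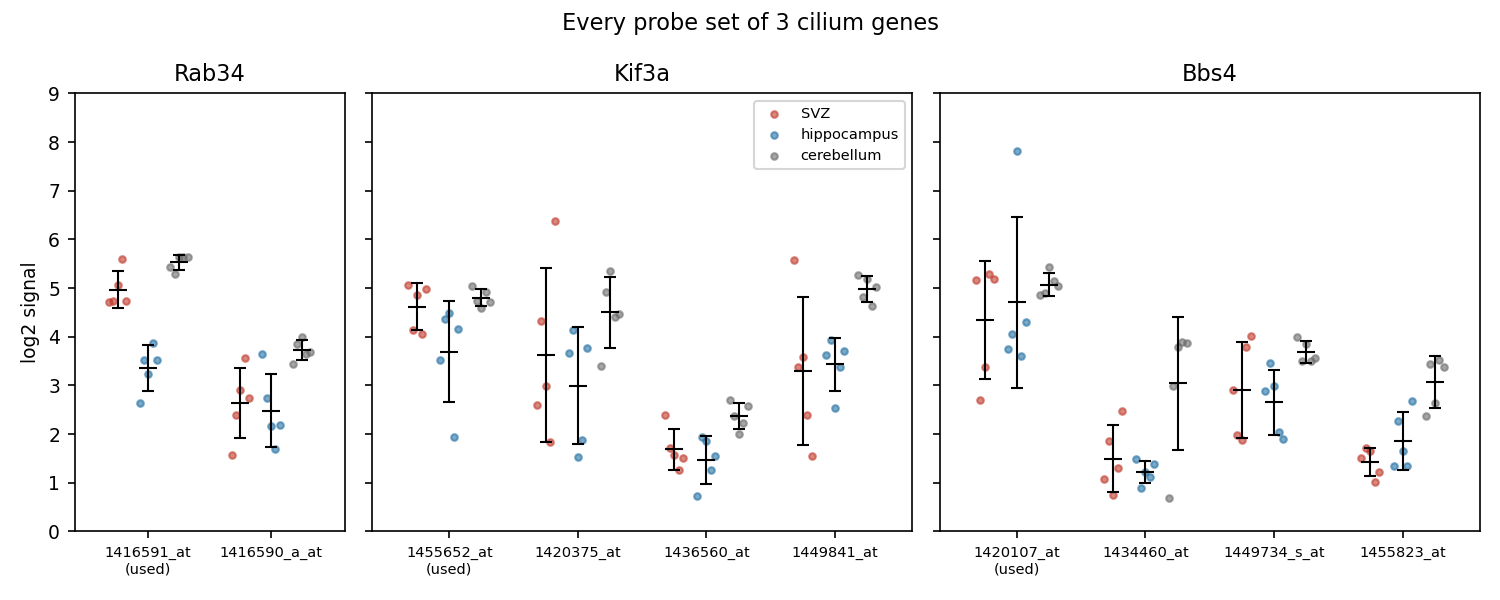
Dots are the log2 signal of single arrays (vertical axis) on each probe set (horizontal axis) of Rab34, Kif3a and Bbs4, coloured by region, with mean ± SD of 5 arrays. All 4 Kif3a probe sets have their hippocampus mean below cerebellum, while the 2 Rab34 probe sets place SVZ differently, with means of 4.97 and 2.64.

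Arl3, a GTPase that releases lipid-modified proteins into the cilium, read 7.18, 6.82, 5.22, 7.32 and 7.73 in SVZ, 7.96, 7.46, 5.80, 3.89 and 7.47 in hippocampus, and 7.52, 7.76, 8.14, 7.85 and 8.07 in cerebellum. The cerebellum arrays were close together, SVZ 3 and hippocampus 3 and 4 fell well below them, and the other arrays lay near or within the cerebellum range. The differences of -1.01 ± 0.67 in SVZ and -1.35 ± 0.67 in hippocampus were not called (adjusted p = 0.403 and 0.271). Inpp5e, the phosphoinositide phosphatase that sets the lipid makeup of the ciliary membrane, had means of 4.35, 4.60 and 4.59 in SVZ, hippocampus and cerebellum, with adjusted p-values of 0.859 and 0.995 against cerebellum. Ttbk2, the kinase that licenses transport at the mother centriole, had means of 2.95, 3.04 and 3.26. Cep164 and Ofd1, of the distal appendages and the centriole end, were dim, at 1.50 and 1.64 over all arrays.

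**Figure D4:**
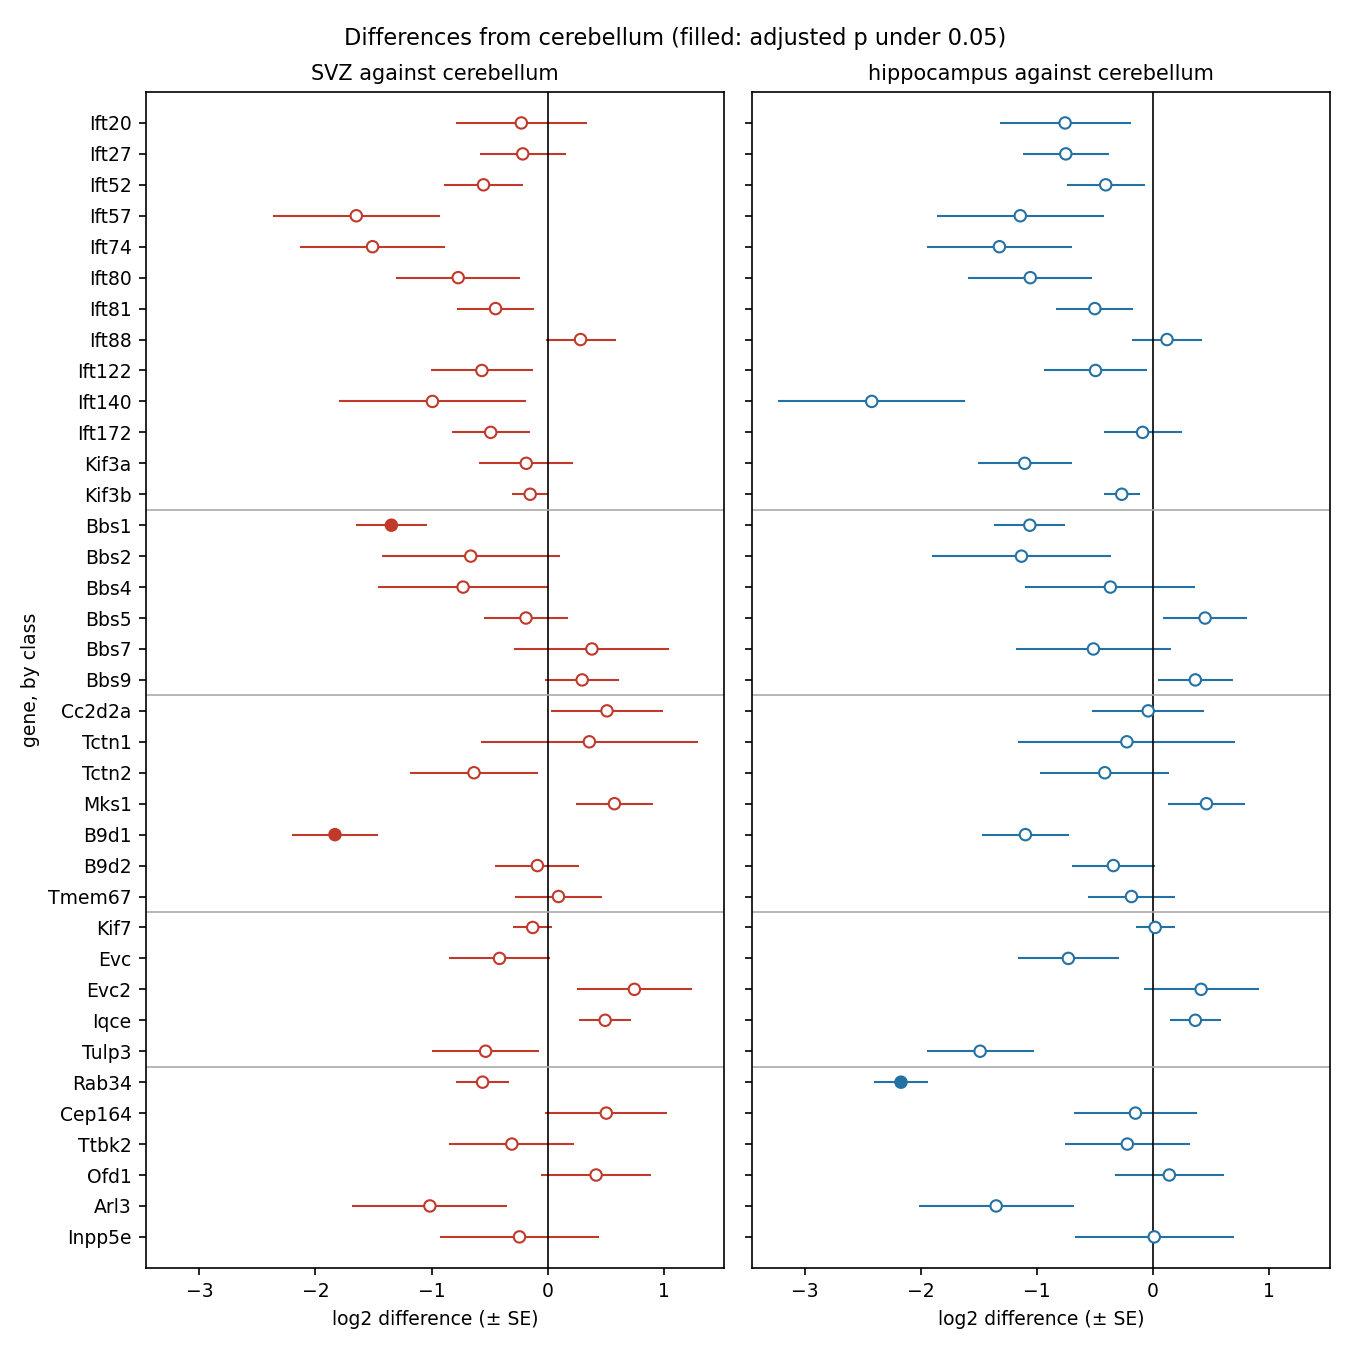
Log2 differences ± SE from cerebellum (horizontal axis) of the 37 cilium genes (vertical axis, ordered by role, with lines between roles) for SVZ on the left and hippocampus on the right. Filled points are the called genes B9d1 and Bbs1 in SVZ and Rab34 in hippocampus, and 12 of the 13 transport genes at the top lie left of 0 in both.

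A wider list of 66 primary cilium genes outside the set, 61 of them measured, had more calls in SVZ. Of the 61 genes 8 (13.1%) were lower in SVZ than in cerebellum and 0 higher, against 4.47% and 1.03% of all genes. The median was -0.32, against 0.07 over all genes and -0.72 over genes with a mean above 3. The 8 genes were Hspb11, Ift43, Ift46, Cluap1 and Ttc30b of the IFT complexes, Kifap3 of the outward kinesin, Dync2li1 of the return dynein, and Lztfl1, which binds the BBSome. In hippocampus 1 of the 61 genes, Hspb11, was lower and 0 were higher, against 3.97% and 0.808% of all genes, with a median of -0.14. SVZ against hippocampus gave 0 calls. At an unadjusted p under 0.05, 17 of the 61 genes (27.9%) differed in SVZ against cerebellum and 15 (24.6%) in hippocampus against cerebellum. In SVZ against hippocampus 8 (13.1%) did. The shares of all genes were 21.1%, 20.1% and 7.02% in the same order.

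Hspb11, the IFT-B partner of Ift27, read 1.60, 3.31, 0.86, 5.04 and 3.48 in SVZ, 2.06, 4.47, 3.44, 1.59 and 3.62 in hippocampus, and 6.65, 5.65, 6.70, 5.84 and 6.32 in cerebellum. Both forebrain regions lay wholly below cerebellum, by -3.37 ± 0.71 (10.4-fold; adjusted p = 0.0128) and -3.20 ± 0.71 (9.16-fold; adjusted p = 0.0185). Ift27 itself differed by -0.21 ± 0.37 and -0.75 ± 0.37 (adjusted p = 0.759 and 0.273).

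Kifap3, which links the Kif3a and Kif3b motor to its cargo, read 4.32, 5.83, 3.91, 4.70 and 3.94 in SVZ, 5.83, 4.25, 6.40, 5.59 and 5.83 in hippocampus and 6.55, 6.92, 6.33, 6.77 and 6.52 in cerebellum. It was lower in SVZ by -2.08 ± 0.40 (adjusted p = 0.00721). Dync2li1 read 2.32, 3.86, 3.27, 3.73 and 3.13 in SVZ, against 5.42, 4.76, 5.59, 5.09 and 5.42 in cerebellum, and was lower by -1.99 ± 0.37 (adjusted p = 0.00622). For both genes no SVZ array reached the cerebellum range. The other 5 called genes were lower in SVZ by -1.74 (Ift43), -1.70 (Ift46), -1.62 (Cluap1), -1.50 (Ttc30b) and -1.46 (Lztfl1), with adjusted p-values of 0.0288 to 0.0407.

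These counts moved with the settings, and so did the calls over all genes. For SVZ against cerebellum the latter were 1002 in the main fit, 1247 with only the regions compared and 1353 with probe set means. They were 368 when cerebellum 4 and 5 were dropped, 609 after quantile normalization and 198 once spike-in level entered the fit. In SVZ the count of 8 became 12 with only the regions compared, and 11 with probe set means, of which 1, Adcy3, was higher. It became 2 with quantile normalization, 4 without SVZ 1 and hippocampus 3, and 0 without cerebellum 4 and 5 or with the spike-in level as a covariate. It was 5 without SVZ 1, SVZ 5 or cerebellum 4 and 3 without SVZ 4 or cerebellum 2, 3 or 5, and Hspb11, Kifap3 and Dync2li1 were among those called each time 1 of these arrays was left out. With the spike-in covariate the differences of these 3 genes were -3.19, -1.95 and -1.91 (adjusted p = 0.215, 0.166 and 0.142). Kifap3 was also lost with quantile normalization (-1.65, adjusted p = 0.0667), and with the mean of its probe sets Hspb11 was -1.51 in SVZ. Hspb11 in hippocampus was lost with quantile normalization (-2.76, adjusted p = 0.0600), with the mean of its probe sets (-1.18, 0.0606), with the spike-in covariate (-3.02, 0.229) and when cerebellum 4 and 5 were left out (-3.30, 0.09995).

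**Figure D5:**
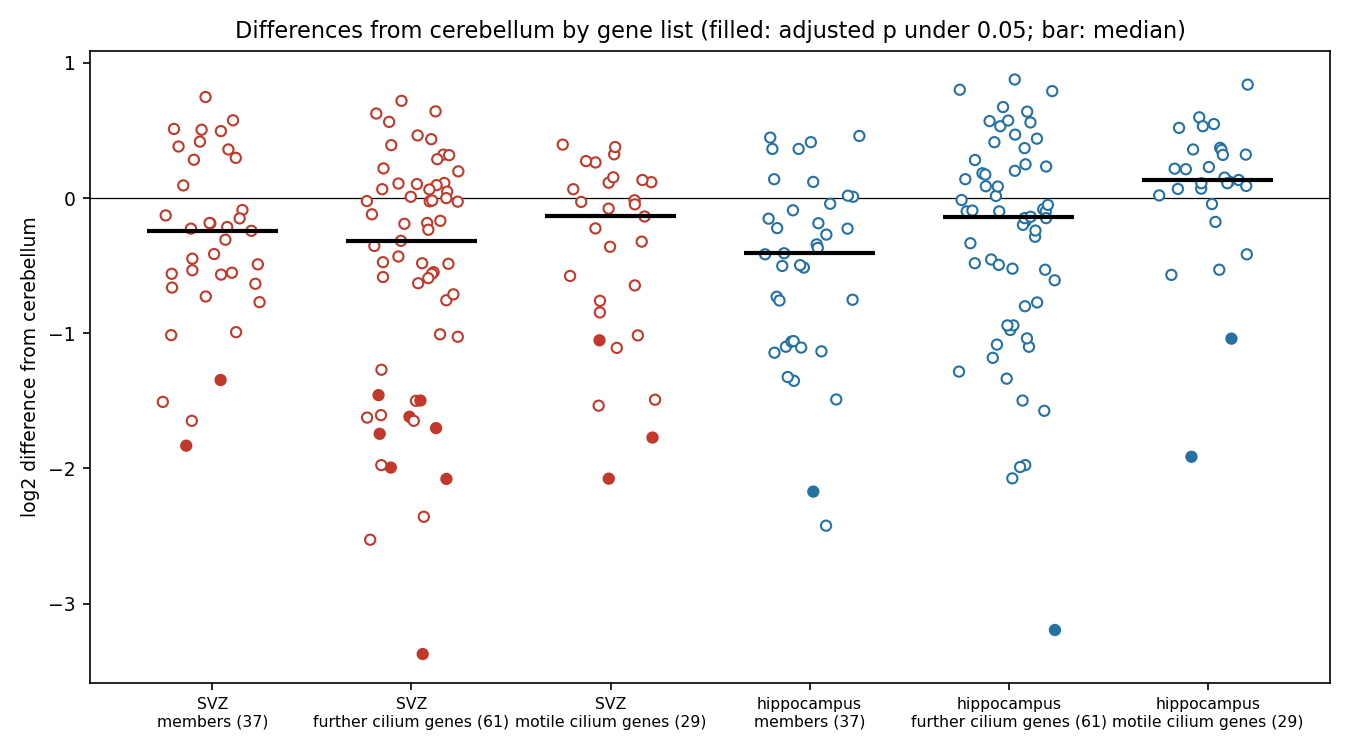
Each point is the log2 difference of 1 gene from cerebellum (vertical axis) for the 37 set members, 61 further primary cilium genes and 29 motile cilium genes (horizontal axis), in SVZ and in hippocampus, with sideways scatter that carries no value. Bars are medians and filled points are called genes, 2, 8 and 3 in SVZ and 1, 1 and 2 in hippocampus, all below 0.

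Motile cilia belong to ependymal cells that line the ventricles beside the SVZ, and their genes were listed as a check on such cells. Of 33 listed, 29 were measured, and 1 had a mean above 3 in SVZ, 5 in hippocampus and 3 in cerebellum. The array mean of the list ranged from 1.44 to 1.73 in SVZ, from 1.53 to 2.82 in hippocampus and from 1.54 to 2.92 in cerebellum. Foxj1, the master regulator of motile cilia, read 1.62 ± 0.58, 1.89 ± 1.30 and 2.46 ± 0.73 (SD, n = 5) in the same order and was not called. In SVZ 3 genes were lower than in cerebellum and 0 higher (median -0.14), and in hippocampus 2 were lower and 0 higher (median 0.13).

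Rfx3, a factor that binds the X-box shown earlier and serves primary as well as motile cilia, was lower in both regions, with differences of -1.77 ± 0.22 (SVZ, adjusted p = 2.655e-04) and -1.04 ± 0.22 (hippocampus, adjusted p = 0.0142). With the mean of its probe sets both calls were lost, at -0.78 (adjusted p = 0.0757) and -0.84 (0.0623), and in hippocampus so they were in 5 further settings, among them quantile normalization (-0.62, 0.196). Tppp3, a tubulin-binding protein, was lower by -2.08 ± 0.36 (adjusted p = 0.00336) and -1.91 ± 0.36 (adjusted p = 0.00572), and Drc1, of the axonemal dynein regulatory complex, by -1.05 ± 0.18 in SVZ (adjusted p = 0.00282). With the spike-in covariate neither passed, Tppp3 at -1.96 (adjusted p = 0.102) and -1.80 (0.123) and Drc1 at -0.91 (0.119), and Tppp3 in hippocampus was also lost with quantile normalization (-1.48, 0.0680).

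Markers of other cells were compared in the same arrays. The mean of 8 microglia markers ranged from 3.06 to 5.87 in SVZ, from 2.83 to 4.88 in hippocampus and from 1.40 to 2.69 in cerebellum, and 3 of 8 were higher in SVZ and 1 of 8 in hippocampus. Their part in the cilium gene differences was not tested. Choroid plexus markers, 7 in number, had array means of 1.71 to 2.70 in SVZ, 2.60 to 8.13 in hippocampus and 1.83 to 7.62 in cerebellum, with 0 of 7 called in any comparison, although 1 differed at an unadjusted p under 0.05 in SVZ against cerebellum and 4 in SVZ against hippocampus. Among 10 neuron markers 1, Calb1, was lower in each forebrain region, and among 7 oligodendrocyte markers 1, Cnp. Most oligodendrocyte markers went the other way, with 5 of the 7 differences above 0 in each comparison with cerebellum. At an unadjusted p under 0.05, 3 of the 7 differed in each comparison, and only Cnp of these was below 0. Of 7 endothelial markers 0 were called, and their highest array means were 3.21 (SVZ), 3.06 (hippocampus) and 1.57 (cerebellum), with 1 gene at an unadjusted p under 0.05 in SVZ against cerebellum. Astrocyte markers were not level either, since 2 of 9 were lower and 1 higher in SVZ and 3 of 9 lower in hippocampus.

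Gli1 and Gfap, whose promoters defined the sort, were not called. Gli1 had means of 2.80 ± 1.31 (SVZ), 2.83 ± 1.91 (hippocampus) and 3.17 ± 0.35 (cerebellum) (SD, n = 5), and Gfap 4.51 ± 1.06, 6.93 ± 0.63 and 4.99 ± 1.23. A further 28 probe sets belonged to 16 of the 37 cilium genes. Of these 19 had the same sign as the one used in SVZ against cerebellum, 17 in hippocampus against cerebellum and 14 in SVZ against hippocampus, and the one called was that of Bbs4, in the 2 comparisons with cerebellum.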

How the data were processed

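The arrays were grouped by their titles and tissue labels, 5 per region. The authors deposited 1 value per probe set, RMA-normalized per the submitters' processing notes and read here as deposited log2 signal because array maxima were near 15. Neither the log base nor the RMA version is stated in those notes. Of 45101 probe sets, 34945 carried 1 gene symbol, 932 several and 9211 none listed; 64 control probe sets were left out, 12 of them poly-A spike-ins used as a measure per array. limma 3.58.1 in R 4.3.3, with version 1.17.8 of data.table, fitted region over 15 arrays and 18193 genes, with Benjamini-Hochberg adjustment over all genes. The fit was run on simulated data that gave each gene the same spread in every region, so the unequal spread of the regions was not tested. Figures used matplotlib 3.10.9 in Python 3.11.15.

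The members, the gene lists, the classes and the alternatives were chosen with earlier results of these data known. The class of assembly and membrane genes was added to the 4 of the rule for genes that fell in none of them. Any member could be named; values on every array were given for called members and, per class, for the one with the highest mean and those with the largest difference from cerebellum. Kif3a, Tulp3, Tctn1 and Iqce were added after their values were seen. Called genes of further lists were named, with values for the largest. Alternatives were a replicate block, quantile normalization, median centring, dim genes left out, probe set means, every probe set alone, a weight per region, trended and robust variance, only the regions compared, the spike-in covariate, doubted arrays left out, and each array left out. Counts of further primary cilium genes under these settings were added after seeing the data. Replicate numbers are not said to pair the arrays, so the main fit did not use them.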

Additional observations from a re-analysis of the deposited data

Results flagged for a closer look

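Single arrays that stood apart from the other 4 of their region were sought in all 111 sets of 5 values, 37 genes in 3 regions, by the gap to the nearest array over the whole range, with a critical value of 0.71. For normally distributed values chance alone flags about 1 in 20 such sets, and 18 of 111 were found, 15 at the high end and 3 at the low end. Many of these genes are dim, and the search was not run over all genes. The count therefore cannot show whether cilium genes differ from other genes in this. By region 8 were in SVZ arrays, 7 in hippocampus and 3 in cerebellum. The high ones in SVZ were Ift20 on array 4 (6.59), Bbs7 on array 3 (5.40), Bbs9 on array 1 (2.25), Tmem67 on array 4 (3.64), Evc on array 4 (3.49), Cep164 on array 5 (4.51) and Ttbk2 on array 2 (4.04). In hippocampus they were Ift140 on array 2 (4.32), Ift172 on array 4 (3.60), Bbs4 on array 3 (7.82), Bbs9 on array 3 (2.91), Tctn2 on array 2 (3.54) and Evc2 on array 5 (3.95). In cerebellum they were Ift172 on array 1 (3.65) and Kif3b on array 1 (2.17). The 3 low values were Kif3b on SVZ 3 (1.32), Tulp3 on hippocampus 4 (1.59) and Tctn1 on cerebellum 3 (1.84). No cause was tested for any of them.

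Rab34 was flagged because it was called in SVZ against hippocampus, so the values of that test repeat the call and are not separate support. That test gave 1.61 ± 0.23 on the log2 scale, with an adjusted p of 0.0295 in the limma fit and all 5 SVZ arrays above all 5 hippocampus arrays. This call passed in 8 of 27 alternative settings, with adjusted p-values up to 0.502, and on the other Rab34 probe set the difference was 0.15 ± 0.37 (adjusted p = 0.937).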

How the results depend on the processing

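No called difference of a cilium gene changed sign under the alternatives run. The counts of called cilium genes, 2 in SVZ against cerebellum, 1 in hippocampus against cerebellum and 1 in SVZ against hippocampus, moved as follows, and the cause was not tested. SVZ against cerebellum gave 1 with quantile normalization, 1 with dim genes left out, 4 with probe set means, 0 with the spike-in covariate and 0 when cerebellum 4 and 5 were left out. Calls over all genes in this comparison moved too, from 1002 in the main fit. They fell to 368 when cerebellum 4 and 5 were dropped, 609 after quantile normalization and 198 once spike-in level entered the fit. Probe set means raised them to 1353. A weight per region gave 1418, while the cilium count stayed at 2. Hippocampus against cerebellum gave 2 with median centring, 2 with dim genes left out, 4 with probe set means and 3 at an adjusted p under 0.1. SVZ against hippocampus gave 0 with dim genes left out, probe set means, a weight per region, trended and robust variance, only the regions compared, the spike-in covariate, without SVZ 1 and hippocampus 3, and without cerebellum 4 and 5. Leaving out each array gave 1 to 2, 1 to 4 and 0 to 1.

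At the thresholds of the series, hippocampus against cerebellum gave 2, which became 0 with quantile normalization, 1 with probe set means and 0 to 2 with each array left out; SVZ against cerebellum stayed at 0 in all 18 settings. For the further primary cilium genes, 8 in SVZ became 12 with only the regions compared, 11 (10 lower, 1 higher) with probe set means, 2 with quantile normalization, 4 without SVZ 1 and hippocampus 3, 0 with the spike-in covariate and 0 when cerebellum 4 and 5 were left out, and 3 to 9 with each array left out. Their 1 in hippocampus became 0 with quantile normalization, the spike-in covariate or no cerebellum 4 and 5, 2 with median centring or only the regions compared, 3 with probe set means, a weight per region or no SVZ 1 and hippocampus 3, and 1 to 4 with each array left out, with Adcy3 higher under probe set means, a weight per region and without SVZ 4 or hippocampus 2.

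The deviations of same-numbered arrays correlated at -0.10 to 0.19 over 15 pairs, with 2 above 0.1. Differently numbered arrays were not compared, so these values cannot decide whether the replicate numbers pair the arrays. With the replicate block the calls were 2, 3 and 1, and those of the further genes 8 and 2. The number of arrays limits all values, and dim genes lie close to the background.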
